A study of Homo sapiens with 12 samples.

Results

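A set of 40 genes known for their part in the machinery of mitosis and cell division were examined: cyclins and phosphatases that switch CDK1 on, mitotic kinases, kinesins, proteins of the centromere, spindle and division furrow, chromosome proteins and the transcription factors FOXM1 and MYBL2. All 40 were measured, among 20546 rows of the expression table that carry a gene symbol. The samples came from 2 established lines of Hodgkin lymphoma, a tumour whose cells descend from B cells: L-428 and L-1236. Each line was transduced either with a vector carrying the green fluorescent protein tGFP only, which served as the control, or with one carrying tGFP and the B-cell transcription factor EBF1 (labelled tGFP/EBF1). After 8 days of culture the tGFP-positive cells were sorted, so every group, the controls included, consists of transduced and sorted cells. There were 4 groups of 3 arrays. The study's question was which genes EBF1 changes in each line.

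As background, a cell enters mitosis when cyclin B binds CDK1 and the CDC25 phosphatases remove the inhibitory phosphates from that kinase. PLK1 and the Aurora kinases then drive centrosome maturation, spindle assembly and chromosome attachment, the checkpoint kinases BUB1, BUB1B and TTK hold the cell until every chromosome is attached, and the APC/C with CDC20 and UBE2C destroys securin and cyclin B to start anaphase. Most genes of this set are transcribed late in the cell cycle. Their promoters are held silent by the DREAM complex in resting cells and are switched on in the G2 phase by a complex of MuvB with MYBL2 and FOXM1. In RNA from whole populations, fewer cells in G2 and mitosis and less RNA per such cell cannot be told apart.

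The 4 promoters printed here belong to the members on which the results turn: PLK1, which rose in L-1236, BUB1 and KIF20A, which had the largest falls in L-428, and KIF14, which fell in L-1236. They were taken from RefSeq on build GRCh38.p14 and run 5′ to 3′ from 250 bases before the transcription start through the first 10 bases after it. PLK1 is at chr16:23678639-23678898 on the plus strand, BUB1 at chr2:110678054-110678313 on the minus strand, KIF20A at chr5:138178862-138179121 on the plus strand and KIF14 at chr1:200620742-200621001 on the minus strand. Capitals mark the CCAAT box, which the factor NF-Y binds, and the cell cycle genes homology region (CHR), the element that MuvB binds, each on either strand.
PLK1: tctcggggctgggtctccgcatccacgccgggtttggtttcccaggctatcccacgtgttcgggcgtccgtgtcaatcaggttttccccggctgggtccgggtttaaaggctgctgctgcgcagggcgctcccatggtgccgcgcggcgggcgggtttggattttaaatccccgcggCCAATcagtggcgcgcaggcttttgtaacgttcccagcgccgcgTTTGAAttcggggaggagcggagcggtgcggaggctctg
BUB1: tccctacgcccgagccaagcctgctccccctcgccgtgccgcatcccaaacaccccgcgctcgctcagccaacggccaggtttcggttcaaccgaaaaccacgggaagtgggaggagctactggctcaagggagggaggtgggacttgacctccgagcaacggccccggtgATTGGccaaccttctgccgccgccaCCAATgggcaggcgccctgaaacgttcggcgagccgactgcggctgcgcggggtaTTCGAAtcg
KIF20A: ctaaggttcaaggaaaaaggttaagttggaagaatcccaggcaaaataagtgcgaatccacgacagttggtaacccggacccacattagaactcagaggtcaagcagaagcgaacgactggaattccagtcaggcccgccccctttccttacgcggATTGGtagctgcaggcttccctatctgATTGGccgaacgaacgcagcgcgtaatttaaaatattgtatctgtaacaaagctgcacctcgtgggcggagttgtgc
KIF14: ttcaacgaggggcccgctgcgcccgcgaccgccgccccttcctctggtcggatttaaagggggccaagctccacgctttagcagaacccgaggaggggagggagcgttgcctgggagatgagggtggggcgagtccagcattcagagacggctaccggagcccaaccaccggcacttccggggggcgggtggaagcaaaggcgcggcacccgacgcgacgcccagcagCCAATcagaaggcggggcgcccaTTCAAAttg

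The PLK1 promoter held a CCAAT box at positions -73 to -69 from the start and a CHR, TTTGAA, at -29 to -24. BUB1 held CCAAT boxes that begin at -79 and -54 and a CHR at positions 2 to 7 after the start, where KIF14 has one as well. KIF20A held 2 CCAAT boxes and neither of the CHR forms searched, TTTGAA or TTCGAA, within these letters. RefSeq promoter windows of 300 bases, reaching to 50 bases after the start, matched 34 of the 40 members and served for the counts over all genes. AURKA, TTK, BIRC5, UBE2C, TPX2 and FOXM1 were not matched. The CHR (TTTGAA or TTCGAA, both strands) was present in 25 of the 34, or 73.5%, against 17.5% of 14617 protein-coding genes on the array. The CCAAT box (CCAAT, both strands) was also present in 25 of them, against 42.5% of those genes. The E2F site (TTTGGCGC or TTTCGCGC) was present in 2 of the 34, CDK1 and NUSAP1, or 5.88%, against 2.03%. The palindromic EBF1 consensus site was in 0 of the 34 members and in 1.83% of those genes. A gene counted as holding a motif if any of its windows did. Some members had more than 1 window, and where these overlap a match was counted in each. Of 107 matches counted in this way, 1 pair of different motifs shared a base. A match describes letters in a window, not binding.

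The deposited values are on a log scale, taken here as log2, and the number of arrays limits their precision. Array medians lay between 7.19 and 7.31. The row for EBF1, which also lists PDGFRB, read 8.34 to 8.63 on the L-428 control arrays and 12.93 to 12.98 on the L-428 EBF1 arrays, and 7.13 to 7.24 against 13.07 to 13.27 in L-1236, so the EBF1 level went with the label on every array. Of the Hodgkin cell markers, 9 of 9 had a mean at or above the median of all values (7.26) in at least 1 of the 4 groups. So had 5 of the 6 measured B-cell genes, 0 of 6 T-cell genes, 2 of 7 myeloid genes and 1 of 6 stromal genes. The mean over the 6 B-cell genes was 6.89 to 7.01 on the L-428 arrays, below that median. On the L-1236 arrays it was 7.60 to 7.82. The part of these markers in the results below was not tested.

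Expression of the members was judged by signal level alone, without detection calls. Means over all 12 arrays ran from 8.21 for CDC25C, the phosphatase that starts mitosis, to 11.52 for TOP2A, the topoisomerase that untangles replicated DNA, with a median of 9.74. All 40 means were above the median of all values, between the 61.6th and 98.7th percentile of the tested rows. Levels of different genes come from different probes and are not compared here. The members moved together between arrays of one group, so they are not independent observations. In the L-428 control group, replicate 3 was the lowest of its group for 38 of 40 members, against 46.9% of all tested rows. Replicate 2 of L-428 EBF1 and replicate 1 of both L-1236 groups were each the lowest of their group for 31. Of all tested rows this held for 35.0% on that L-428 array, 30.8% on the L-1236 control array and 38.6% on the L-1236 EBF1 array. Replicate 3 of the L-428 control also had a narrower spread of values, with an interquartile range of 2.28 against 2.49 and 2.47 on its 2 companions.

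**Figure D1:**
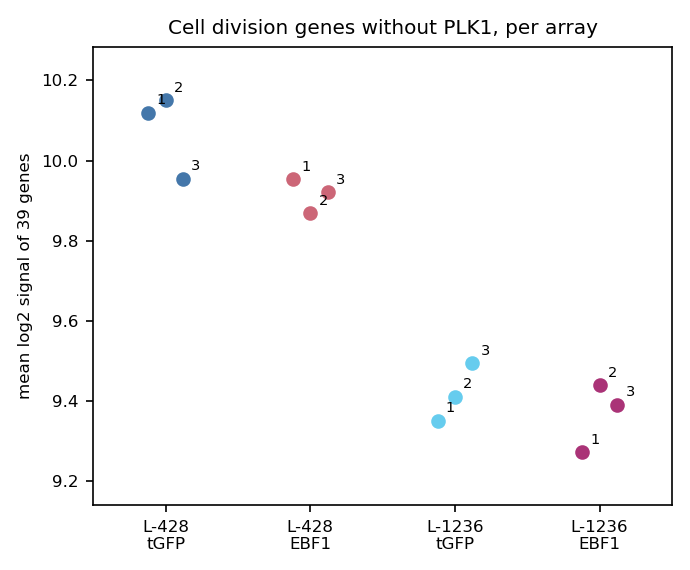
Mean log2 signal of the 39 members other than PLK1 on each of the 12 arrays, by group. The L-428 arrays lie at 9.87 to 10.15 and the L-1236 arrays at 9.27 to 9.49, and the lowest L-428 control array, 9.96, lies just above the highest L-428 EBF1 array, 9.95.

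PLK1, the kinase that controls entry into mitosis and spindle assembly, was set apart from the other members with its result known and is described on its own. In L-1236 its log2 signal was 10.87, 10.91 and 10.90 on the control arrays and 11.69, 11.73 and 11.62 on the EBF1 arrays. All 3 EBF1 arrays stood above all 3 controls. The rise was 0.79 ± 0.077 (SE) on the log2 scale, or 1.73-fold (limma, adjusted p = 1.23e-06). It did not reach the study's 2-fold limit, and it passed the adjusted p under all 22 alternative settings, with changes from 0.74 to 0.82.

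In L-428, PLK1 read 11.63, 11.74 and 11.36 on the control arrays and 11.31, 11.34 and 11.33 on the EBF1 arrays. The groups did not overlap, although replicate 3 of the controls lay close to the highest EBF1 array. The difference was -0.25 ± 0.077 (limma, adjusted p = 0.0789), and it passed under 4 of 22 alternative settings. Without replicate 3 of the controls it was -0.36 (limma, adjusted p = 0.000992), without replicate 1 -0.22 (limma, adjusted p = 0.216) and without replicate 2 -0.17 (limma, adjusted p = 0.348). The order of the group means was L-1236 EBF1 at 11.68 ± 0.059 (SD, n = 3), L-428 control at 11.58 ± 0.20, L-428 EBF1 at 11.33 and L-1236 control at 10.89 ± 0.017. The first and the second of these overlapped. Control cells of L-428 exceeded those of L-1236 by 0.69 (limma, adjusted p = 3.25e-07), whereas among EBF1 cells L-428 was the lower by 0.35, a difference of -0.35 (limma, adjusted p = 0.000689).

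The other polo-like kinases did not pass in either line. Over all tested rows 2.62% rose and 1.72% fell in L-428, and 3.69% rose and 5.95% fell in L-1236. In L-1236 PLK2, an early-response member, differed by 0.04, PLK3 by 0.10 and PLK4, which drives centriole duplication, by -0.05. In L-428 the differences were -0.05, 0.00 and -0.16. Of the 6 RefSeq genes nearest to PLK1 in gene order, NDUFAB1, PALB2, DCTN5, ERN2, CHP2 and PRKCB, none passed in L-1236. For lists this short, no pass is close to the share of all rows in that line. The neighbours' changes there ran from -0.15 for NDUFAB1 to 0.22 for DCTN5 (limma, adjusted p = 0.0715). ERN2 overlaps the end of PLK1 and differed by 0.07. PRKCB, the protein kinase C of B-cell receptor signalling, fell by 0.60 in L-428 (limma, adjusted p = 9.77e-06) and differed by -0.01 in L-1236.

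**Figure D2:**
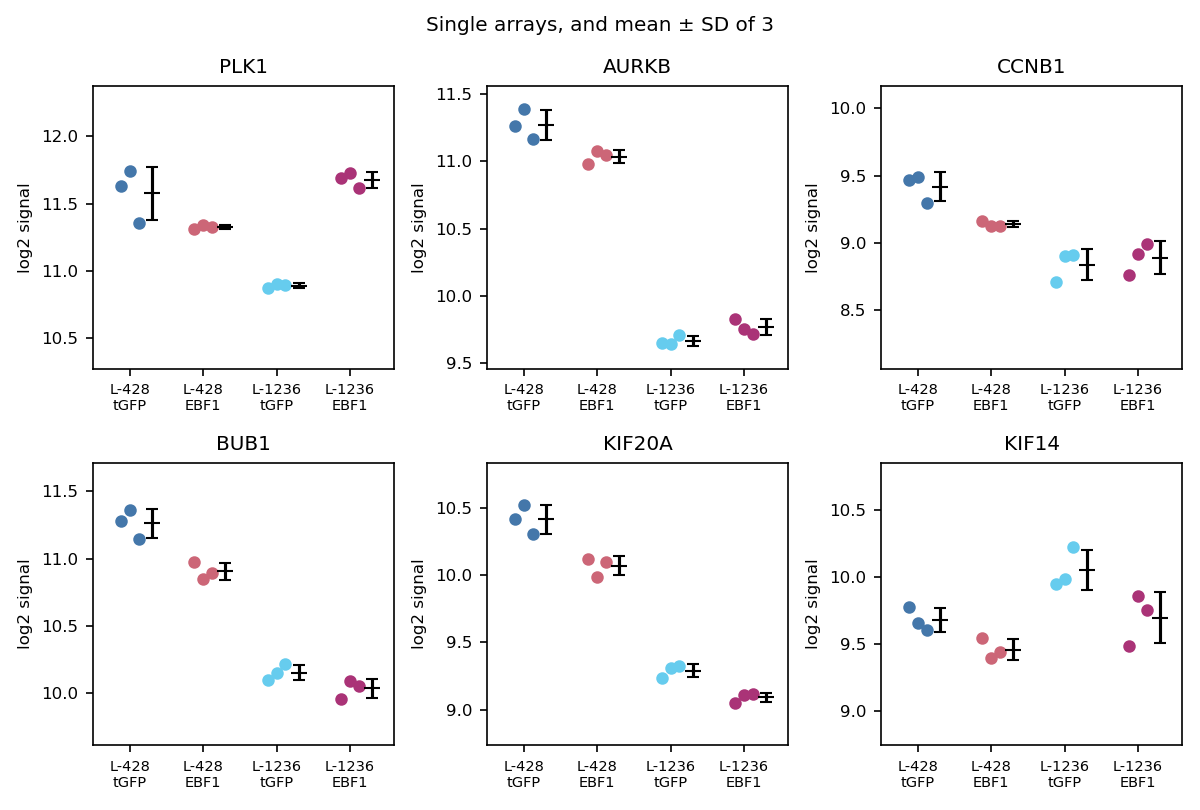
Log2 signal of 6 members on single arrays (points) with the mean ± SD of the 3 arrays of each group (bars), each panel spanning the same width in log2 units around its own gene. PLK1 is the gene whose L-1236 EBF1 arrays, at 11.62 to 11.73, stand far above their controls at 10.87 to 10.91.

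In L-428, EBF1 cells had slightly lower values for nearly the whole set. Of 40 members, 0 rose and 8 fell at an adjusted p of 0.05 (limma). Over all tested rows 2.62% rose and 1.72% fell. The members that fell were CCNA2, CCNB1, CDC25C, AURKB, BUB1, UBE2C, KIF20A and PRC1, and 0 of them reached 2-fold in either direction (over all rows, 0.0195% fell that far and 0.0779% rose that far). Differences were below 0 for 39 of 40 members, against 48.1% of tested rows, with a median of -0.15 against 0.0037 for all rows. The 3 EBF1 arrays lay below all 3 controls for 22 members and above them for 1, where this held for 6.98% and 11.3% of tested rows. The standard error of a single member's difference was 0.058 to 0.093. The count of falls depends on single arrays. Without replicate 3 of the L-428 control it was 15, and without any other single L-428 array it was 2. It was 4 without replicate 2 of the L-1236 control and 5 without replicate 1 or 3 of that group or replicate 3 of L-1236 EBF1. BUB1 and KIF20A were the members that passed under all 22 alternative settings. AURKB and PRC1 passed under 8, CDC25C under 9, CCNB1 under 13 and CCNA2 and UBE2C under 15.

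**Figure D3:**
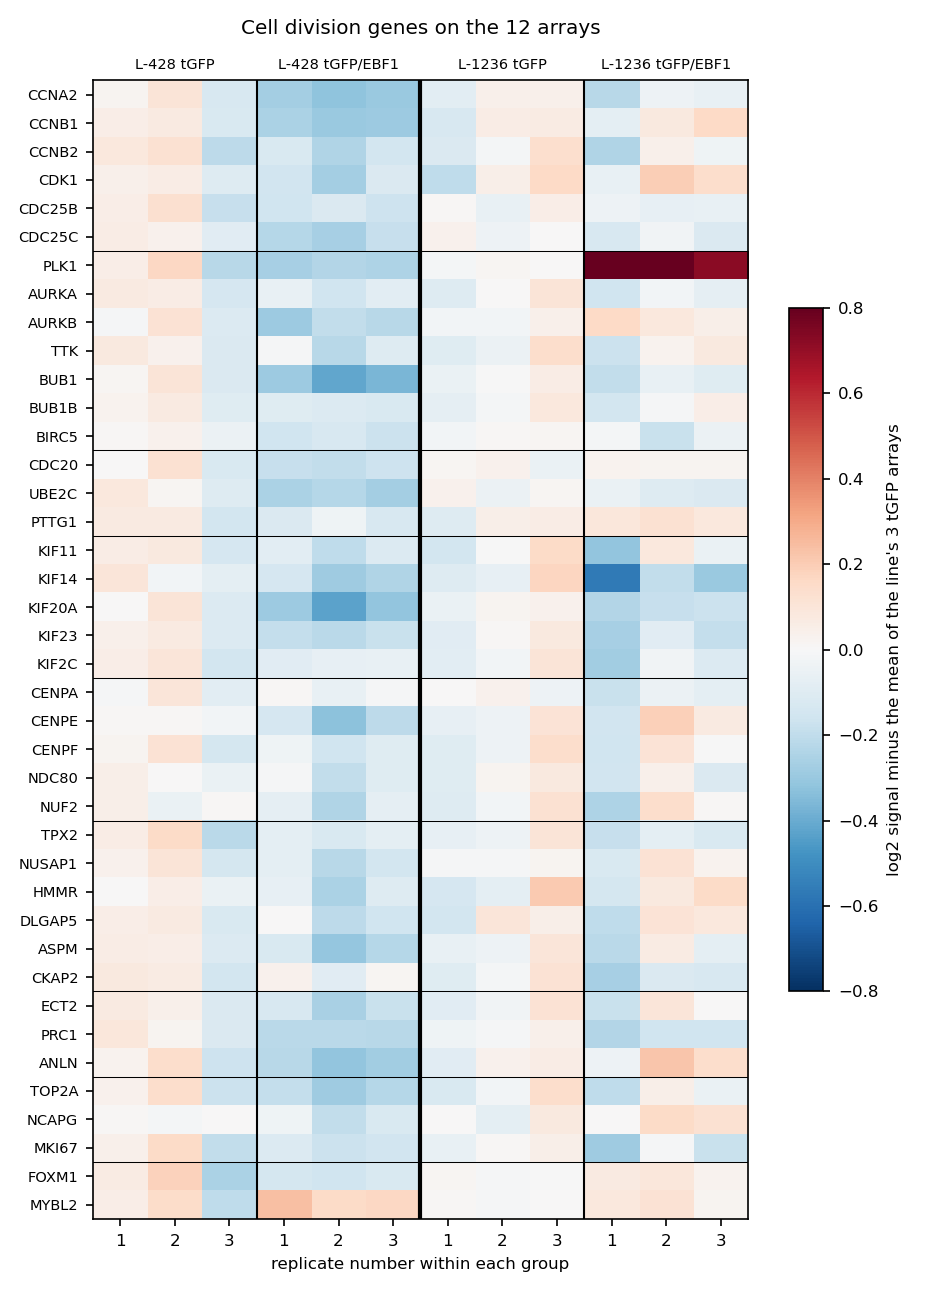
Heat map of the 40 members (rows, by role) on the 12 arrays (columns, by group), coloured by the log2 signal minus the mean of the 3 control arrays of the same line. The L-428 EBF1 columns are below 0 for most genes, BUB1 and KIF20A the furthest on average, and the PLK1 row is the one far above 0 in the L-1236 EBF1 columns.

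Of the 6 genes of the cyclin and CDK1 step, 3 fell in L-428 and all 6 were below 0. CCNA2, the cyclin of S and G2 phase, read 10.60, 10.69 and 10.45 on the control arrays and 10.31, 10.26 and 10.28 on the EBF1 arrays, a fall of 0.30 ± 0.070 (limma, adjusted p = 0.0185). CCNB1, the main mitotic cyclin, read 9.47, 9.49 and 9.30 against 9.16, 9.12 and 9.13 and fell by 0.28 (limma, adjusted p = 0.0392). For both cyclins the control arrays were all above the EBF1 arrays, with replicate 3 the nearest to them. CDC25C fell by 0.23 (limma, adjusted p = 0.0377), from 8.28 ± 0.080 to 8.06 ± 0.043. The members that did not pass were CCNB2 at -0.17, CDK1 at -0.18 and the phosphatase gene CDC25B at -0.15. CCNA2 overlaps EXOSC9 in the RefSeq annotation, and how the array's probes treat such overlaps is not given in the sources used here.

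Among the 7 genes of mitotic kinases and the chromosomal passenger complex, 2 fell in L-428. BUB1, a kinase of the spindle checkpoint, read 11.28, 11.36 and 11.14 on the control arrays and 10.97, 10.84 and 10.89 on the EBF1 arrays. The lowest control was well above the highest EBF1 array. Its fall of 0.36 ± 0.067 was the largest of the set (limma, adjusted p = 0.00323). AURKB, the kinase of the chromosomal passenger complex, read 11.26, 11.39 and 11.16 against 10.98, 11.08 and 11.05 and fell by 0.24 (limma, adjusted p = 0.0436). BIRC5, survivin, the passenger subunit that places AURKB at centromeres, differed by -0.15 and did not pass. Its second, dimmer row differed by -0.16. AURKA, the spindle pole kinase, was at -0.10, and the checkpoint kinases TTK and BUB1B were both at -0.11.

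Of the 3 genes that act at anaphase, UBE2C, the ubiquitin-conjugating enzyme of the APC/C, fell in L-428. It read 9.46, 9.39 and 9.27 on the control arrays and 9.12, 9.15 and 9.10 on the EBF1 arrays, without overlap, and the fall was 0.25 ± 0.060 (limma, adjusted p = 0.02). UBE2C has 5 named pseudogenes in RefSeq whose sequence could share its probes. Other members that fell have similar limits. BUB1 and AURKB have the named pseudogenes BUB1P1 and AURKBP1, CDC25C overlaps the protein-coding gene FAM53C, and PRC1 overlaps PRC1-AS1. CDC20, the activator of the APC/C, differed by -0.18, and PTTG1, which encodes securin, by -0.09.

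Of the 5 kinesins, KIF20A fell in L-428. This motor of the central spindle read 10.42, 10.52 and 10.30 on the control arrays and 10.12, 9.99 and 10.10 on the EBF1 arrays. The groups did not overlap, and the fall was 0.34 ± 0.065 (limma, adjusted p = 0.00323). KIF20A overlaps CDC23 in RefSeq. KIF14 differed by -0.22, KIF23, a subunit of centralspindlin, by -0.19, KIF11, which pushes spindle poles apart, by -0.13, and KIF2C, which dismantles microtubules at centromeres, by -0.07, and none of these passed.

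Of the 3 cytokinesis genes PRC1, the protein that bundles microtubules of the central spindle, fell in L-428. It read 10.40, 10.33 and 10.19 on the control arrays and 10.09, 10.09 and 10.08 on the EBF1 arrays, a fall of 0.22 (limma, adjusted p = 0.0471). The EBF1 arrays were nearly identical to each other and below every control. ANLN, which encodes the scaffold anillin of the division furrow, was at -0.27 (limma, adjusted p = 0.0637), and ECT2, the activator of RHOA at the furrow, at -0.19.

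No centromere, spindle or chromosome gene passed in L-428. Among the 5 centromere and kinetochore genes, CENPE, a kinetochore motor, was at -0.22, NUF2 and NDC80, subunits of the complex that grips microtubules, at -0.13 and -0.10, CENPF at -0.10 and CENPA, the histone variant of centromeres, at -0.02. Among the 6 spindle genes, ASPM was at -0.22, NUSAP1 at -0.15, HMMR at -0.14, DLGAP5 at -0.12, TPX2, the activator of AURKA, at -0.09 and CKAP2 at -0.01. TOP2A was at -0.23, the proliferation marker MKI67 at -0.15 and NCAPG, a condensin subunit, at -0.12.

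The transcription factors of the programme differed from each other in sign. FOXM1 was at -0.14 in L-428 and did not pass. MYBL2 was the 1 member above 0, at 0.19 (limma, adjusted p = 0.217). Its control arrays read 10.53, 10.62 and 10.27 and its EBF1 arrays 10.71, 10.62 and 10.64. The lowest EBF1 array was level with the highest control to the decimals given. Under quantile normalization MYBL2 passed as higher.

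Of the 8 members that fell in L-428, 7 had a promoter window. All 7 held a CCAAT box, against 25 of the 34 members with a window and 42.5% of all genes. The CHR letters searched, TTTGAA or TTCGAA, were in 3 of the 7, CDC25C, BUB1 and PRC1. They were in 25 of the 34 members and 17.5% of all genes. Other forms of the CHR were not searched, so the remaining promoters are not shown to lack one. The 7 were picked by these same arrays, and the list is short and changes with the setting. These shares are therefore not read as a trait of the genes that fell.

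In L-1236 the differences of the members lay on both sides of 0. PLK1 rose and KIF14 fell, 1 of 40 in each direction (limma, adjusted p of 0.05), against 3.69% and 5.95% of tested rows. Neither reached 2-fold, which 0.0876% of tested rows did upwards and 0.0584% downwards. Differences were below 0 for 27 of 40 members, against 46.6% of tested rows, and the median was -0.062. Arrays did not overlap for 5 members higher and 9 lower, against 11.6% and 15.1% of tested rows. The median turned to 0.010 without replicate 1 of L-1236 EBF1.

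KIF14, a kinesin that acts at the midbody in the last step of cytokinesis, read 9.94, 9.99 and 10.22 on the L-1236 control arrays and 9.48, 9.85 and 9.75 on the EBF1 arrays. The groups did not overlap, though each held an array apart from its companions, replicate 3 of the controls on the high side and replicate 1 of EBF1 on the low side. The fall was 0.35 ± 0.090 (limma, adjusted p = 0.0151), and it passed under 17 of 22 alternative settings. It did not pass without either of those 2 arrays, and then 0 members fell. Without replicate 2 of the L-428 control or of L-1236 EBF1 2 members fell, KIF14 among them, and without replicate 3 of the L-428 control 4 did. KIF20A was at -0.20 (limma, adjusted p = 0.0629), PRC1 at -0.18 (limma, adjusted p = 0.0675) and KIF23 at -0.18 (limma, adjusted p = 0.101). None of these 3 passed.

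The remaining members of L-1236 lay close to 0 on both sides. Among the cyclin and CDK1 genes, CCNA2 was at -0.11, CDC25C at -0.09, CCNB2 at -0.08, CDC25B at -0.05, CCNB1 at 0.05 and CDK1 at 0.09. Among the kinases and passengers, BUB1 was at -0.12, AURKA at -0.09, BIRC5 at -0.08, BUB1B at -0.04, TTK at -0.02 and AURKB at 0.10. UBE2C was at -0.09, CDC20 at 0.03 and PTTG1 at 0.10.

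Further from the kinases the pattern was alike. KIF2C was at -0.14, KIF11 at -0.10, CENPA at -0.10, NDC80 at -0.07, NUF2 at -0.03, CENPF at -0.02 and CENPE at 0.04. CKAP2 was at -0.17, TPX2 at -0.13, ASPM at -0.08, DLGAP5 at 0.00, NUSAP1 at 0.01 and HMMR at 0.03. MKI67 was at -0.16, TOP2A at -0.07, NCAPG at 0.09, ECT2 at -0.03, ANLN at 0.11, FOXM1 at 0.06 and MYBL2 at 0.07, and none of them passed.

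The difference between the lines' EBF1 effects, L-428 minus L-1236, was itself tested. PLK1 differed by -1.04 ± 0.11 (limma, adjusted p = 9.97e-06), which passed under all 21 alternatives that could give it. It was the 1 member whose difference exceeded 2-fold, against 0.0779% of tested rows in either direction. AURKB differed by -0.34 (limma, adjusted p = 0.0393), with a fall in L-428 and 0.10 in L-1236, and passed under 7 of the 21. No other member passed, so 2 were lower and 0 higher, against 1.79% and 3.38% of tested rows. Without replicate 3 of the L-428 control 7 were lower, without replicate 1 of L-1236 EBF1 4 were, and without any other array but replicate 2 of L-1236 EBF1 PLK1 was the 1 that passed. BUB1, with the largest fall in L-428, differed by -0.24 between the lines (limma, adjusted p = 0.18), and KIF20A by -0.15 (limma, adjusted p = 0.476). KIF14 differed by 0.13 (limma, adjusted p = 0.688). Passing in one line and not in the other is therefore shown as a difference between lines for PLK1 and AURKB alone among the members.

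**Figure D4:**
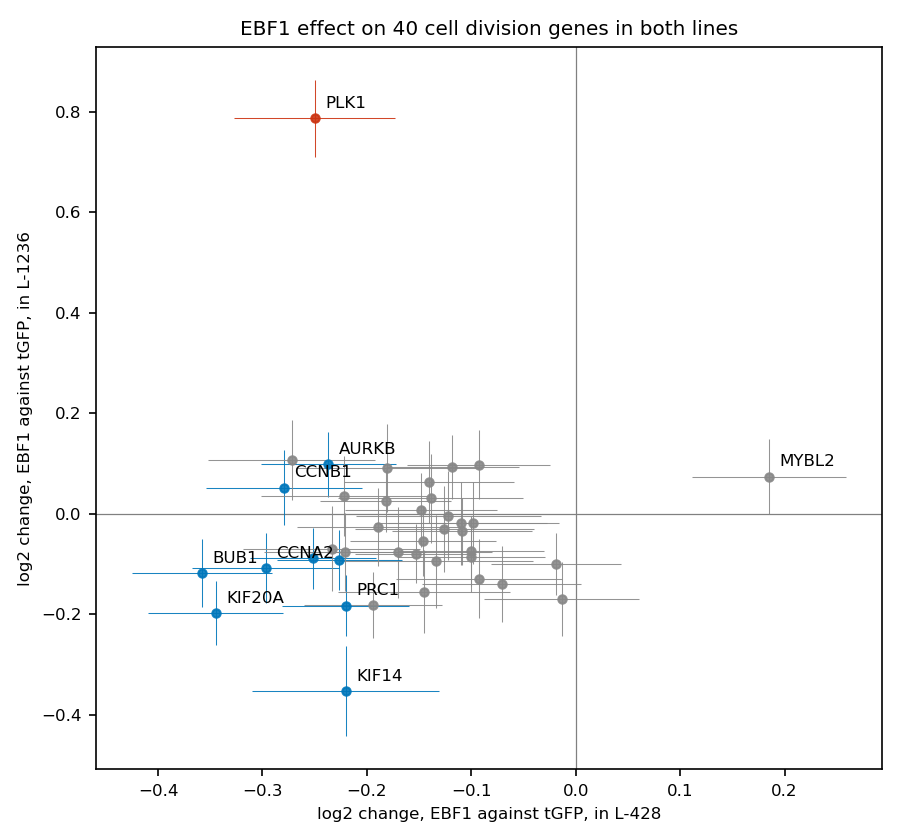
Log2 change with EBF1 in L-428 (horizontal axis) against that in L-1236 (vertical axis) for the 40 members, with bars of 1 standard error, coloured members having passed in at least 1 line. PLK1 lies alone at -0.25 and 0.79, and 38 of the other 39 members lie left of 0 in L-428.

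Between the lines themselves, most members were higher in L-428. These comparisons use the same arrays as those of EBF1 against its control. Interquartile ranges were 2.28 to 2.49 on the L-428 arrays and 2.17 to 2.31 on the L-1236 arrays. The members are bright rows, and the shares of all rows are not matched for brightness. Under quantile normalization PLK1 differed by 0.54 among control cells, in place of 0.69, and by -0.46 among EBF1 cells, in place of -0.35. The part of the spread in the line differences was not tested. Among control cells, 33 members were higher in L-428 and 2 lower (limma, adjusted p of 0.05), against 26.1% and 21.7% of tested rows, and 11 were at least 2-fold higher and 0 lower, against 4.16% and 3.04% of rows. Arrays did not overlap for 32 members higher and 2 lower, against 28.0% and 24.8% of rows. The median difference was 0.64. AURKB had the largest, with control arrays at 11.26, 11.39 and 11.16 in L-428 and 9.65, 9.65 and 9.71 in L-1236, a difference of 1.60 ± 0.065 (limma, adjusted p = 1.29e-13). The next were PTTG1 at 1.37 and CDK1 at 1.29. DLGAP5, TTK, CCNA2, HMMR, KIF20A, BUB1, KIF11 and BIRC5 were the other members beyond 2-fold, from 1.22 to 1.02.

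Members of one complex did not always differ alike between the lines. Of the NDC80 complex, NDC80 was higher in L-428 by 0.79 (limma, adjusted p = 1.32e-08) while NUF2 differed by 0.07 and did not pass. CENPE was higher by 0.34. KIF14 and CENPA went the other way, at -0.37 (limma, adjusted p = 0.00177) and -0.26 (limma, adjusted p = 0.00155). The row of CENPA also lists SLC35F6, although its RefSeq accessions are those of CENPA. CDC25C at -0.01, CENPF at 0.02, CKAP2 at 0.05 and ANLN at 0.12 did not pass either. Under quantile normalization CENPF turned to -0.14 and passed as lower in L-428 (limma, adjusted p = 0.0454), the 1 of 22 alternative settings in which it passed.

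The remaining members were higher in L-428 control cells by less than 2-fold. CDC20 was higher by 0.96, CCNB2 by 0.95, PRC1 by 0.88, AURKA and NCAPG both by 0.82, ECT2 by 0.72, and FOXM1 and MKI67 both by 0.64. NUSAP1 was higher by 0.63, CDC25B by 0.62, CCNB1 and TOP2A both by 0.58, KIF23 by 0.51, ASPM by 0.49 and BUB1B by 0.43. UBE2C was higher by 0.39, TPX2 by 0.34, KIF2C by 0.29 and MYBL2 by 0.19 (limma, adjusted p = 0.0411). The arrays of MYBL2 overlapped between the lines, and it passed under 11 of 22 alternative settings, with differences from 0.04 to 0.29.

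**Figure D5:**
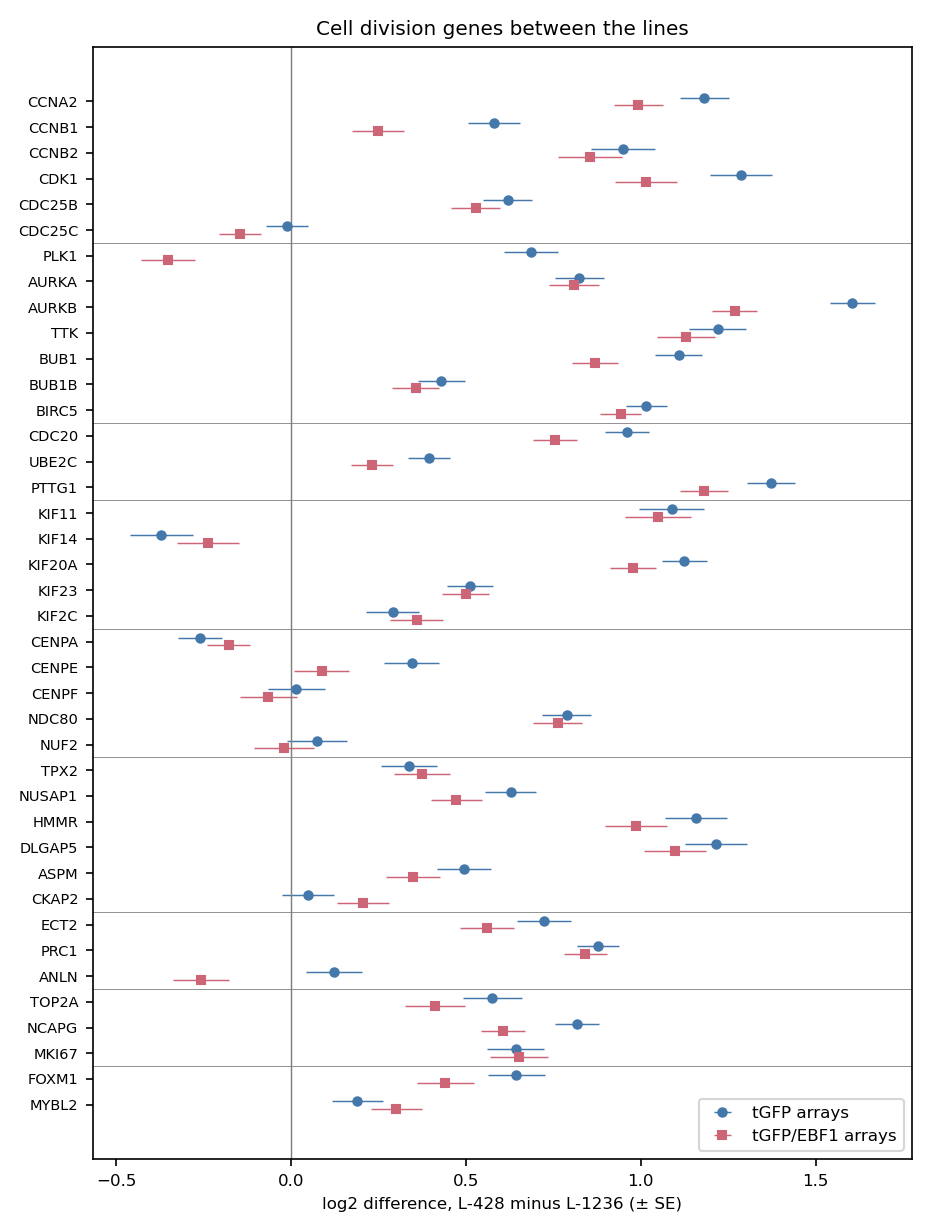
Log2 difference between L-428 and L-1236 for each of the 40 members, among control cells and among EBF1 cells, with bars of 1 standard error. PLK1 moves the furthest, from 0.69 among control cells to -0.35 among EBF1 cells, and crosses 0, as do ANLN, CENPF and NUF2 by less.

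Among EBF1 cells, 32 members were higher in L-428 and 5 lower, against 28.2% and 22.3% of tested rows, and the median difference was 0.51. The 5 lower were PLK1, ANLN at -0.26, KIF14 at -0.24, CENPA at -0.18 and CDC25C at -0.15 (limma, adjusted p = 0.0493). Beyond 2-fold, 6 were higher and 0 lower, against 4.85% and 2.80% of rows. Arrays did not overlap for 32 members higher and 4 lower, against 30.8% and 28.8% of rows. The count of lower members was 1 without replicate 2 of L-1236 EBF1, 2 without replicate 3 of that group or replicate 2 of L-428 EBF1 and 3 without replicate 3 of L-428 EBF1, and PLK1 passed each time.

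Other genes of the same programme were read from a list of 54 further mitotic genes. In L-428, 1 rose and 5 fell, against 2.62% and 1.72% of tested rows. Their median was -0.087 and 44 of the 54 were below 0, against 48.1% of tested rows. The 5 were PARPBP at -0.36, OIP5, which helps load CENPA onto centromeres, at -0.35, the condensin subunit NCAPD2 at -0.34, CCNF at -0.26 and CDCA3 at -0.23, and the 1 that rose was the lamin gene LMNB1 at 0.29 (limma, adjusted p = 0.0493). In L-1236, 1 rose, the condensin subunit NCAPH at 0.26, and 3 fell, SKA3 of the outer kinetochore at -0.42, OIP5 at -0.33 and the spindle gene SPAG5 at -0.24, with a median of -0.030. Over all tested rows 3.69% rose and 5.95% fell in that line. Among control cells 41 of the 54 were higher in L-428 and 3 lower, against 26.1% and 21.7% of tested rows.

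Genes that slow the cycle and genes of the DREAM and MuvB complexes were read as well, against the same shares of all tested rows, 2.62% higher and 1.72% lower in L-428 and 3.69% and 5.95% in L-1236. Of 14 measured CDK inhibitor and G2 brake genes, 1 rose in L-428, GADD45B, a stress-induced gene, at 0.42 (limma, adjusted p = 0.000889), with a median of -0.0048 for the list. In L-1236 CDKN1A, the CDK inhibitor p21, rose by 0.33 (limma, adjusted p = 0.000478), RB1, the retinoblastoma protein, rose by 0.33 (limma, adjusted p = 0.0147), and the antiproliferative gene BTG1 fell by 0.41 (limma, adjusted p = 0.0015), with a list median of 0.077. CDKN1A differed by -0.03 in L-428. Of 10 DREAM and MuvB genes, MYBL1 fell by 0.28 in L-428 (limma, adjusted p = 0.0265), and in L-1236 E2F5 fell by 0.43 (limma, adjusted p = 0.000936) and TFDP2, a dimer partner of E2F proteins, by 0.26 (limma, adjusted p = 0.0128). The medians of that list were 0.024 and -0.040. CDKN2C and BTG2 were not analysed here.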

How the data were processed

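RNA of sorted tGFP-positive cells was amplified, biotin-labelled and hybridised to Affymetrix whole-transcript arrays, per the labels' protocols, with 3 independent samples a group; whether these came from separate transductions is not given, so p-values measure the spread between these samples. The authors deposited 1 log2 value per row and array. The log base is not stated; values reach 14.3, which a natural or base-10 logarithm of a 16-bit scanner's signal could not. How signals were summarized and normalized is not given in the sources used here. Of 32321 rows, 20546 carried a gene symbol in the platform annotation (19158 with 1 symbol, 1388 with several) and were tested; 11775 had none. Where several rows named a member, the brightest stood for it.

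Models with 4 group means over 12 arrays were fitted to these values with lmFit and eBayes of limma 3.58.1 (R 4.3.3), with 8 residual and 9.98 prior degrees of freedom. Benjamini-Hochberg adjustment ran over all 20546 rows within each contrast. A gene rose or fell at an adjusted p of 0.05 or less; the study's limits were a false discovery rate of 5% and 2-fold. All members, all polo-like kinases and the PLK1 neighbours were named, and of the other lists up to 6 genes per EBF1 contrast and direction. Members and lists were chosen with earlier results of these data known, PLK1 among them. The fit was run on simulated data with independent noise in each row, so that run cannot speak to the members' shared movement between arrays. Promoters came from RefSeq, GRCh38.p14. Alternatives were other scalings, row filters, variance models, weighted arrays, fits to the groups of a contrast alone, a replicate block, and leaving out each array or the pair that stands apart. That pair was picked from the values of these same arrays. Figures used Python 3.11.15 and matplotlib 3.10.9.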

Additional observations from a re-analysis of the deposited data

Results flagged for a closer look

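A limma interaction test, adjusted over all tested rows, found the EBF1 effect to differ between L-428 and L-1236 for 2 members. The difference, L-428 minus L-1236 on the log2 scale, was -1.04 for PLK1 (adjusted p = 9.97e-06) and -0.34 for AURKB (adjusted p = 0.0393). PLK1 passed under all 21 alternative settings and AURKB under 7 of the 21. Over all tested rows 3.38% were higher and 1.79% lower by this test. Of the 54 further mitotic genes 2 were higher and 1 lower, close to those shares. Of 14 CDK inhibitor and G2 brake genes 1 was higher and 1 lower, as of 10 DREAM and MuvB genes. Of the 6 PLK1 neighbours 0 were higher and 1 lower. Among these related genes the difference was -0.47 for NCAPH (limma, adjusted p = 0.00768), 0.51 for SKA3 (limma, adjusted p = 0.0226) and 0.40 for LMNB1 (limma, adjusted p = 0.0457). It was 0.49 for GADD45B (limma, adjusted p = 0.00493) and -0.36 for CDKN1A (limma, adjusted p = 0.00909). For MYBL1 it was -0.34 (limma, adjusted p = 0.0482), for E2F5 0.46 (limma, adjusted p = 0.0178) and for PRKCB, a neighbour of PLK1, -0.59 (limma, adjusted p = 0.000573).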

How the results depend on the processing

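The number of arrays, 3 a group, limits all of these results. The rise of PLK1 in L-1236, its difference between lines, and the falls of BUB1 and KIF20A in L-428 passed under every alternative that could give them. Other counts moved. Members that fell in L-428, 8 as reported, numbered 15 with quantile normalization (and 1 rose), 2 with median centring, 3 over every row of the table, 24 with array weights, 4 with the groups of that contrast alone and 23 without both arrays that stand apart (replicate 3 of the L-428 control and replicate 1 of L-1236 EBF1), and 2 to 15 with single arrays left out. In L-1236 the falls, 1 as reported, numbered 3, 0, 0 and 5 under the first 4 of these settings and 0 to 4 with single arrays left out (0 without L-1236 control replicate 3 or EBF1 replicate 1, 4 without L-428 control replicate 3), and array weights gave 2 rises. Members with a lower difference of effects, 2 as reported, numbered 7, 1, 1 and 16 under those 4, 11 without both arrays and 1 to 7 with single arrays left out. Members lower in L-428 among EBF1 cells, 5 as reported, numbered 1 with median centring, 3 over every row and 1 to 5 with single arrays left out. CENPF between control cells was -0.14 with quantile normalization. The cause of these shifts was not tested. Shares of all tested rows called under the alternative settings are given neither here nor above, so these member counts are not set against them. Whether replicate numbers pair the samples was not settled. Correlations of same-numbered deviations ran from -0.47 to 0.28. They cannot decide it, since the deviations of the 3 arrays of a group sum to 0. A replicate block gave 4 falls in L-428 and 1 lower difference of effects. Array weights came from limma's gene-by-gene method, chosen after seeing the data, because the default iteration did not converge. The pair that stands apart was likewise picked from these data. Its L-428 control array was the lowest of its group for 38 of 40 members, so leaving it out raises the control mean of those members.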
